A study of Gallus gallus with 3 samples.

Results

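The proteasome is the barrel-shaped protease that destroys proteins tagged with ubiquitin, and its genes were followed here in broiler breast muscle. Members were the genes whose symbol in the NCBI chicken RefSeq gene table begins with PSMA to PSMG and a digit. Of 40 such symbols, 32 were matched to a transcript of the deposited tables, among 10663 genes matched in all. The muscle was taken at 42 days of age from male chickens (Gallus gallus) of the meat strain Arbor Acres, kept in air with 50 ± 3 ppm of ammonia. The study's 3 libraries analysed here are all of this group, and are numbered as in their titles. Libraries of other exposures were not analysed here, so the values describe the tissue under this exposure and differences between libraries, and none of them measures what ammonia does. The labels do not state that the libraries stem from separate birds, so an SD covers the spread between libraries only, which may be technical.

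As background, the catalytic core (20S) is built from a pair of outer alpha rings, which gate the entrance, and a pair of inner beta rings, which hold the cutting sites. A cap (19S) docks on the alpha ring, where ATPases unfold the substrate and thread it in, while non-ATPase subunits recognise and remove the ubiquitin chain. Activators of the PSME family can dock in place of the cap, PSMF1 binds the core as an inhibitor, and dedicated chaperones assemble the rings. In skeletal muscle the ubiquitin and proteasome system carries out much of the turnover of myofibrillar proteins, and its genes are known to be induced together in wasting muscle of mammals.

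The matched members comprised 7 alpha genes (PSMA), 4 beta genes (PSMB), 4 cap ATPases (PSMC), 10 genes named as cap non-ATPases (PSMD), 2 activators (PSME), the inhibitor PSMF1 and 4 assembly chaperones (PSMG). The genes PSMB3, PSMB5, PSMC5, PSMD7, PSMD11, PSMD13 and PSME1 are in the gene table but were not matched, and they were not analysed here. The same holds for PSMC3IP, which fits the naming rule but encodes a factor of meiotic recombination and no part of the proteasome. Each of the 32 genes rests on 1 transcript, 27 of them curated and 5 predicted, although the gene table lists more than 1 accession for 13 of them. A level is therefore a lower bound where other isoforms hold reads. Values were taken to be FPKM (read fragments per kilobase of a transcript, scaled for library size), a unit inferred from the values and not named in the tables. The depth of sequencing is unknown, and values carry no counting interval.

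Most proteasome genes were listed at levels above those of most other genes. A level of at least 1 FPKM in at least 2 libraries was reached by 31 of the 32 genes, and the means of those 31 lay above the median of the 6595 genes that passed this filter. The 32 genes together made up 0.346% of all values summed in library 1, 0.439% in library 2 and 0.405% in library 3, a mean of 0.397 ± 0.047% (SD, n = 3). The core supplied 55.8%, 59.2% and 59.3% of the members' sum in libraries 1 to 3 and the cap 34.9%, 33.3% and 33.2%, while the 2 activators supplied 2.17%, 1.67% and 2.18%.

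**Figure D1:**
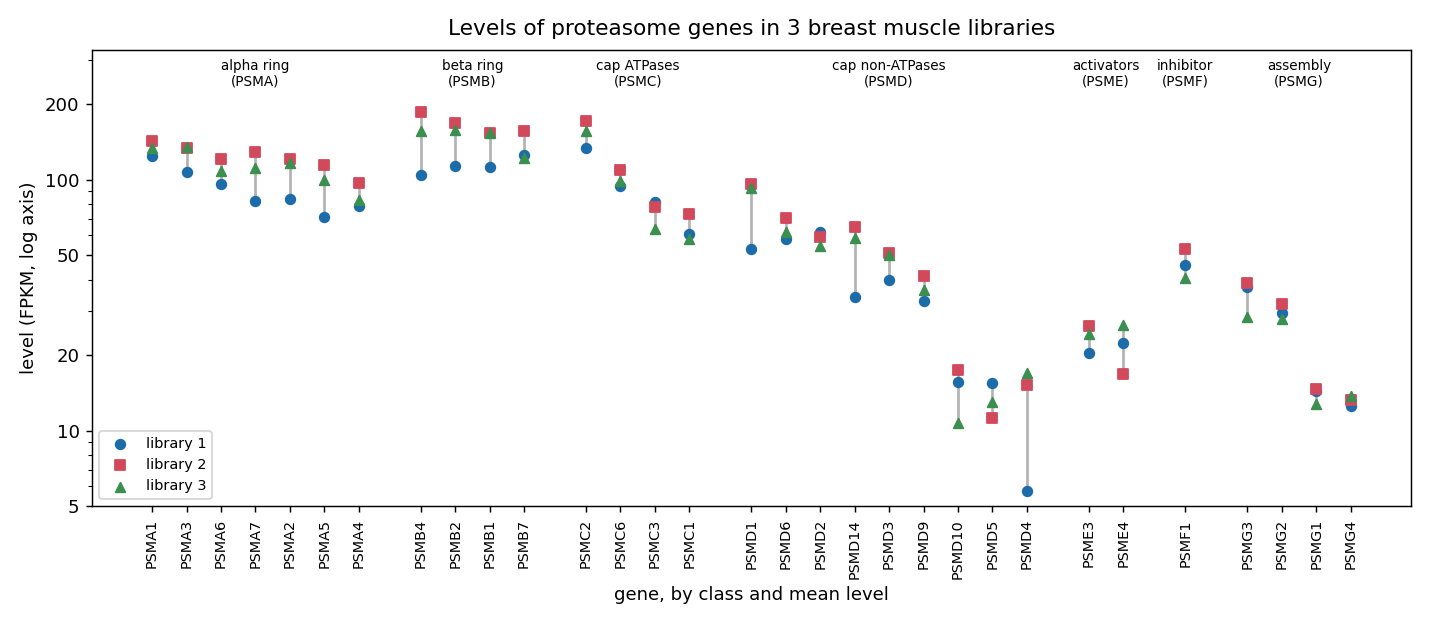
Level in FPKM (log axis) of the 31 proteasome genes that passed the filter, grouped by class and ordered by mean level; each symbol is 1 library and the grey line spans the 3 libraries. The 11 core genes at the left have means between 86.2 and 149 FPKM, PSMC2 stands highest among the cap genes at a mean of 154 FPKM, and PSMD12, listed near 0, is not drawn.

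The genes of the alpha ring were listed within a narrow band. The 7 PSMA means spanned 86.2 to 134 FPKM, a 1.55-fold range, with an SD of 0.22 between genes on the log2 scale. PSMA1, the highest by mean, had 125, 143 and 133 FPKM in libraries 1 to 3, a mean of 134 ± 9.21 FPKM. PSMA4, the lowest, was listed at 78.4, 97.3 and 82.9 FPKM, a mean of 86.2 ± 9.87 FPKM. PSMA1 exceeded PSMA4 in each library. Between them came PSMA3 at 125 ± 15.9 FPKM, PSMA6 at 108 ± 11.9 FPKM, PSMA7 at 108 ± 23.9 FPKM, PSMA2 at 107 ± 20.6 FPKM and PSMA5 at 94.8 ± 22.1 FPKM. Of the 6 pairs of neighbours in this order, only PSMA3 over PSMA6 and PSMA2 over PSMA5 kept their order in all 3 libraries with a mean log2 ratio above 2 SD, so most of the order cannot be resolved.

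The means of the beta genes lay closer together, and their median was above that of the alpha genes. PSMB4, a structural beta subunit, had 105, 185 and 156 FPKM in libraries 1 to 3, a mean of 149 ± 40.9 FPKM, with the highest mean and the largest SD of the class. PSMB7, which carries the trypsin-like cutting site, was listed at 125, 156 and 122 FPKM, a mean of 134 ± 18.8 FPKM, the lowest mean of the class. In library 1 this order was turned, with PSMB7 highest and PSMB4 lowest of the 4. The structural subunit PSMB2 was listed at 113, 168 and 158 FPKM, a mean of 146 ± 29.0 FPKM. PSMB1, another, was listed at 113, 154 and 153 FPKM, a mean of 140.1 ± 23.7 FPKM. The 4 means spanned a 1.11-fold range, and no pair of neighbours differed by more than 2 SD of its log2 ratio. The median alpha level lay below the median beta level in every library, at log2 ratios of -0.44, -0.42 and -0.47 (mean -0.44 ± 0.03). The genes of the chymotrypsin-like and caspase-like sites, PSMB5 and PSMB6, were not analysed here.

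The cap ATPases form 1 ring in the particle but were not listed at equal levels. PSMC2 was listed at 134, 171 and 157 FPKM, a mean of 154 ± 18.7 FPKM. That was the highest mean of all members, but PSMB4 was higher in library 2 and PSMB2 in library 3. PSMC1 was listed at 60.8, 73.2 and 57.8 FPKM, a mean of 63.9 ± 8.14 FPKM and the lowest of the ATPases. PSMC6 was listed at 94.4, 109 and 99.1 FPKM, a mean of 100.9 ± 7.53 FPKM. PSMC3 was listed at 81.3, 77.6 and 63.6 FPKM, a mean of 74.1 ± 9.36 FPKM. The order PSMC2, PSMC6, PSMC3, PSMC1 was the same in all 3 libraries, and the steps from PSMC2 to PSMC6 and from PSMC6 to PSMC3 exceeded 2 SD of their log2 ratios.

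The genes named PSMD covered the widest range of levels. PSMD1 and PSMD2 encode the large scaffold subunits at the base of the cap. PSMD1 had values of 53.0, 96.2 and 92.9 FPKM in libraries 1 to 3, and PSMD2 of 62.2, 59.1 and 54.2 FPKM. Library 1 was below the other 2 for PSMD1, whereas the PSMD2 values lay within a 1.15-fold span and their order depended on the scaling between libraries. PSMD14, the deubiquitinase that cuts the ubiquitin chain off the substrate, was listed at 34.1, 64.6 and 58.7 FPKM, a 1.90-fold span with library 1 lowest. The lid scaffold genes PSMD6 and PSMD3 had means of 63.3 ± 6.29 and 47.0 ± 6.35 FPKM.

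PSMD4, a ubiquitin receptor of the cap, had the lowest mean of the cap genes that passed the filter, although PSMD5 was lower in libraries 2 and 3. It had 5.75, 15.1 and 17.0 FPKM in libraries 1 to 3, a mean of 12.6 ± 6.04 FPKM and a 2.96-fold span with library 1 apart from the other 2. PSMD12, a lid scaffold subunit, was listed at 0.226, 0.000148 and 0.0167 FPKM. It belongs to a particle that every cell uses, its single matched transcript is 1 of 4 accessions in the gene table, and a value near 0 in these tables can be a failed estimate. It is therefore reported only as listed near 0.

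PSMD5, PSMD9 and PSMD10 carry PSMD names but are chaperones that help build the base of the cap and leave it before the particle is complete. PSMD9 was listed at 32.8, 41.2 and 36.2 FPKM, PSMD10 at 15.6, 17.5 and 10.8 FPKM, and PSMD5 at 15.5, 11.2 and 13.0 FPKM. PSMD10 was lowest in library 3 and PSMD5 in library 2, so these chaperones did not share an order of libraries. The chaperones of the alpha ring, like these, had means below those of all core genes. PSMG3 was listed at 37.3, 38.8 and 28.4 FPKM, PSMG2 at 29.6, 31.9 and 27.9 FPKM, PSMG1 at 14.4, 14.7 and 12.8 FPKM, and PSMG4 at 12.6, 13.2 and 13.7 FPKM. PSMG1 works with PSMG2 and PSMG3 with PSMG4, yet PSMG2 exceeded PSMG1 by a log2 ratio of 1.09 ± 0.05. The 7 assembly chaperones had a median level of 15.6 ± 1.89 FPKM (SD over libraries), against 63.8 ± 6.88 FPKM for the 10 other cap genes that passed the filter.

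Both matched activators had means below those of all core genes, though above the median of all genes that passed the filter. PSME3, which forms the nuclear activator ring known as PA28 gamma, was listed at 20.4, 26.2 and 24.3 FPKM. PSME4, which encodes the large activator PA200, was listed at 22.4, 16.9 and 26.3 FPKM. The order of these activators differed between libraries, since PSME3 was the higher in library 2 only. PSMF1, the inhibitor, was listed at 45.6, 53.0 and 40.7 FPKM, above both activators in every library.

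The levels of the 3 parts were then compared within each library. The median core gene exceeded the median of the 14 matched cap genes by log2 ratios of 1.17, 1.12 and 1.12 in libraries 1 to 3, a mean of 1.14 ± 0.03 (2.20-fold). With PSMD5, PSMD9 and PSMD10 set aside the mean ratio was 0.95 ± 0.10. Both cap medians take in PSMD12, listed near 0. Without PSMD12 and the 3 chaperones, the 10 cap genes left had medians of 59.3, 71.7 and 60.3 FPKM in libraries 1 to 3. The core medians were 104.6, 134.3 and 122.0 FPKM, so the excess was on the same side but smaller. Library 1 had the largest excess over the 14 genes but the smallest over these 10. The SD of 0.03 and that order of libraries thus hold for the median of 14 genes only. The median core gene exceeded the median activator by log2 ratios of 2.29, 2.64 and 2.27, a mean of 2.40 ± 0.21 (5.28-fold). Within the cap, the median ATPase exceeded the median of the 10 matched PSMD genes by 1.39, 1.01 and 0.91, a mean of 1.11 ± 0.25. That PSMD median takes in the 3 chaperones and PSMD12, listed near 0. The 6 PSMD genes left without them had medians of 46.4, 61.8 and 56.5 FPKM in libraries 1 to 3. The ATPase medians were 87.9, 93.4 and 81.3 FPKM, so the excess was smaller but on the same side. All 3 libraries lay on the same side for each of these ratios. No p-value is given because the members were chosen with results of these data known, and 3 libraries could not reach a sign-flip permutation p below 0.25. A transcript level is not a protein level, and the ratios give no stoichiometry of the particle.

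**Figure D2:**
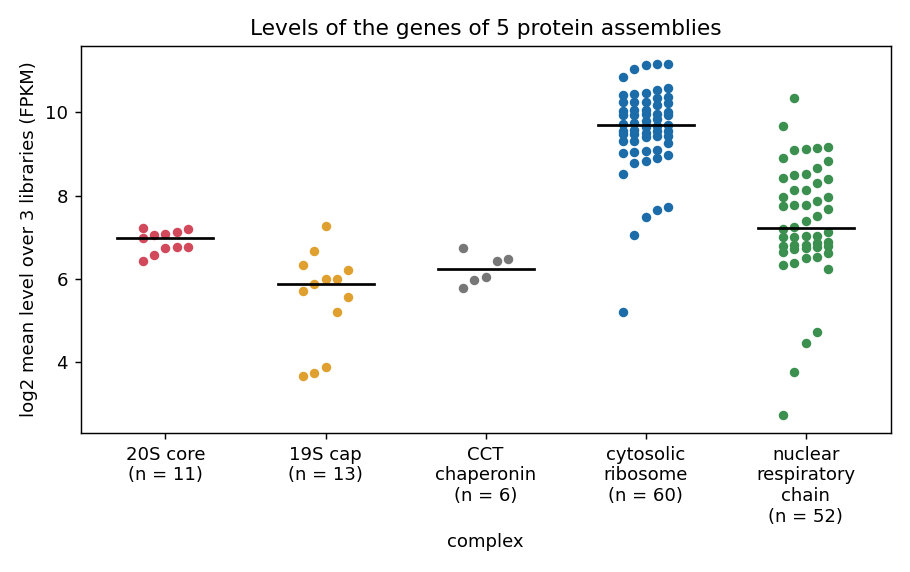
Log2 of the mean FPKM over 3 libraries for the genes that passed the filter in the proteasome core, its cap, the CCT chaperonin, the cytosolic ribosome and the nuclear respiratory chain; each point is a gene and black lines are medians. The core genes lie within a 1.72-fold range, while the cap genes span 12.2-fold. The lowest cap gene is PSMD4, at a mean of 12.6 FPKM, followed by the chaperones PSMD5 and PSMD10.

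Set beside other large assemblies, the core had the smallest SD of levels among the 5 gene groups compared. The log2 mean levels of its 11 genes had an SD of 0.26, against 1.14 for 13 cap genes, 0.36 for 6 genes of the CCT chaperonin (the folding chamber for actin and tubulin), 1.03 for 60 cytosolic ribosomal protein genes and 1.40 for 52 nuclear genes of the respiratory chain. Their median levels, averaged over libraries, were 120.3, 58.5, 75.4, 847 and 155.2 FPKM in the same order. With the chaperones PSMD5, PSMD9 and PSMD10 set aside, the SD of the 10 cap genes left was 0.94, below that of the ribosomal protein genes. That SD takes in PSMD4, at a mean of 12.6 FPKM, while the next lowest of the 10, PSMD3, had 47.0 FPKM. The middle 50% of these 10 spanned 0.55 on the log2 scale. The same span was 0.35 for the core, 0.47 for the chaperonin, 0.92 for the ribosomal protein genes and 1.56 for the respiratory chain. These SDs and spans describe the genes matched, were not tested, and take in any error of the transcript models.

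The next comparison was between libraries. Core genes were lowest in library 1 in 10 of 11 cases, where 25.8% of all genes that passed the filter were lowest in that library. All 7 PSMA genes were among them, and the exception was PSMB7, lowest in library 3. Core genes were highest in library 2 in 10 of 11 cases, where 26.3% of all genes were, and the exception was PSMA3, at 107, 134 and 135 FPKM. Over the 31 members that passed the filter, 20 were at their lowest in library 1 and 24 at their highest in library 2. Outside the core, 10 of 20 members had their lowest value in library 1 and 14 their highest in library 2. Among these, 2 of the 7 assembly chaperones and 7 of the 10 other cap genes were lowest in library 1. In bulk tissue, fewer cells of a type and less RNA per cell cannot be told apart.

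The scaling between libraries matters for such counts, because the median gene itself lay higher in library 1. Set against the mean of the other 2, its log2 level was off by 0.15, -0.04 and -0.09 in libraries 1 to 3. With libraries scaled by the median ratio over genes, 25 of 31 members were lowest in library 1, against 37.1% of all genes, and 24 were highest in library 2, against 30.9%. All 11 core genes were then lowest in library 1 and 9 were highest in library 2, while 14 of the 20 members outside the core were lowest in library 1. Measured from the median gene, the median member deviated by -0.34, 0.28 and 0.09 on the log2(FPKM + 1) scale in libraries 1 to 3, and the median core gene by -0.60, 0.33 and 0.23. The median cap gene deviated by -0.33, 0.28 and 0.06, and the median PSMG gene by -0.12, 0.17 and -0.07. With PSMD5, PSMD9 and PSMD10 set aside, the median of the 10 cap genes left deviated by -0.39, 0.27 and 0.10. That of the 6 PSMD genes among them deviated by -0.73, 0.38 and 0.32, in library 1 further than the core median. These 6 were split there, with PSMD2 (-0.02), PSMD6 (-0.33) and PSMD3 (-0.50) deviating less than the core median. PSMD1 (-0.97), PSMD14 (-0.99) and PSMD4 (-1.49) deviated more. The values for the 3 libraries are tied to each other, since each is set against the other 2. For library 3 the sign depended on the comparison, at -0.12 against library 2 alone and 0.29 against library 1 alone.

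**Figure D3:**
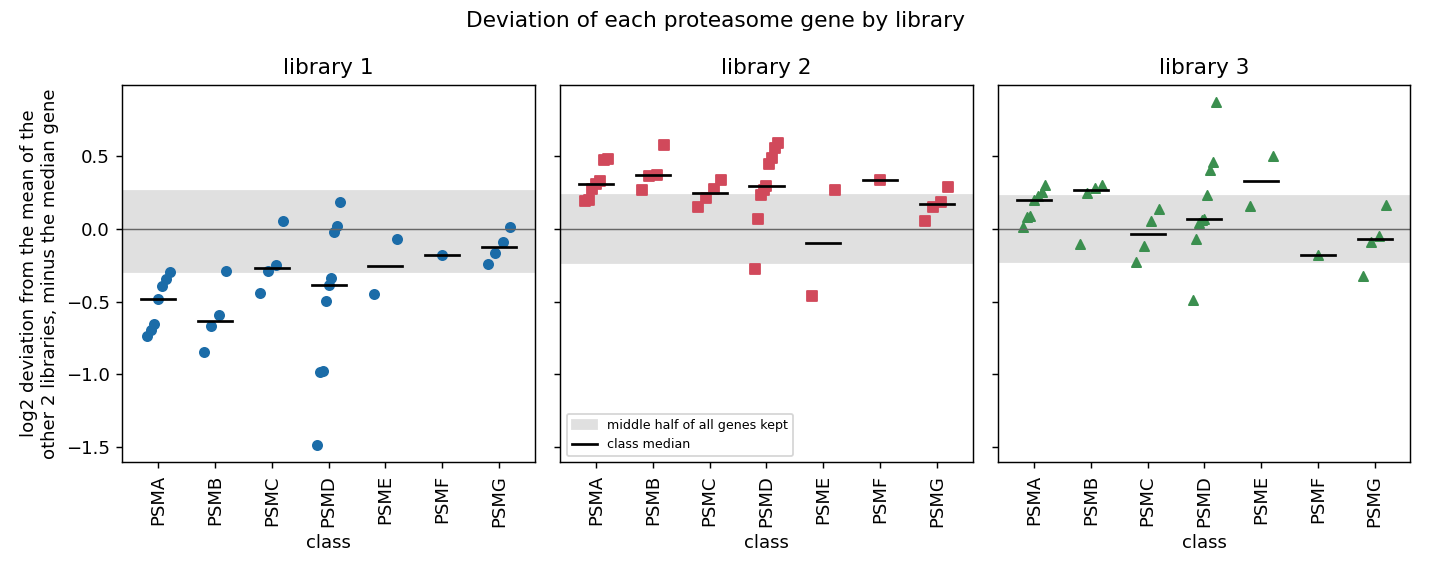
Log2(FPKM + 1) deviation of each proteasome gene from the mean of the other 2 libraries, minus that of the median gene, by class; black lines are class medians and the grey band is the middle 50% of all genes that passed the filter. The PSMA and PSMB medians lie at -0.48 and -0.63 in library 1 and at 0.31 and 0.37 in library 2, while the PSMG medians lie at -0.12 and 0.17.

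Some members did not share that order. Of the 31 that passed the filter, 9 were lowest in library 3, against 39.4% of all genes. Another 2 were lowest in library 2, against 34.8%. As deposited, PSMC3, PSMD2 and PSMD5 were highest in library 1. After median-ratio scaling PSMC3 and PSMD2 were highest in library 2 and lowest in library 3, and only PSMD5 was still highest in library 1. PSME4 was lowest in library 2, where its log2 deviation from the median gene was -0.46, while that of PSME3 was 0.27. The classes thus overlapped in their deviations, and the difference between core and other members was not tested.

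The labelled tissue was checked against markers. The 6 matched of 10 fast muscle markers summed to 50093, 63935 and 64150 FPKM in libraries 1 to 3, with PVALB low at 1.28 to 2.37 FPKM. Of these 6, 4 were lowest in library 1, against 25.8% of all genes, and 1 was highest in library 2, against 26.3%. The 5 matched of 6 slow fibre markers summed to 38.0 to 58.8 FPKM. Markers of other cells also differed between libraries. Fibroblast markers (6 of 7 matched) summed to 400, 875 and 651 FPKM. Of these 6, 4 were lowest in library 1, against 25.8% of all genes, and 5 highest in library 2, against 26.3%. In library 1 the median fibroblast marker deviated by -0.86 from the median gene, the median fast muscle marker by -0.59 and the median core gene by -0.60. Medians below the median gene there were also those of red blood cell (-1.70) and slow fibre (-0.11) markers. Above it were those of lymphocyte (0.08), endothelial (0.28), macrophage (0.48) and adipocyte (1.27) markers. These medians cover the markers that passed the filter. For slow fibres these were 3 genes that lay on both sides in library 1, TNNI1 (-1.78), TPM3 (-0.11) and MYH7B (1.99). Red blood cell markers (5 of 6) summed to 83.0, 427 and 308 FPKM, an order set by CA2 at 45.7, 355 and 189 FPKM. The globin gene HBBA was highest in library 3, at 24.3, 54.1 and 98.7 FPKM. Macrophage markers (9 of 10) summed to 407, 352 and 171 FPKM, lymphocyte markers (6 of 8) to 12.3, 16.8 and 7.27 FPKM, adipocyte markers (5 of 5) to 276, 169 and 103 FPKM and endothelial markers (4 of 5) to 81.1, 48.3 and 52.9 FPKM. The listed fast muscle marker CASQ1 was matched, through a synonym, to the gene that the table names CASQ2, and the red blood cell marker ALAS2 to the one it names ALAS1. Of the matched markers only MYL2 and MYL3 were at 0, both in library 1, while HBAD was below 0.001 FPKM in every library and HBA1 in libraries 1 and 2. The part of these cells in the proteasome values was not tested.

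No single member passed a test for spread between libraries. A comparison of each gene's variance against its trend with level (limma, upper F tail, Benjamini-Hochberg adjustment over 6595 genes) called 0 of 31 members and 0 of all genes (0.0%). Before adjustment 372 genes (5.64%) had a p under 0.05, among them 1 member, PSMD4, with an adjusted p of 0.814 and an SD of 0.78 on the log2 scale. PSMD14 and PSMD1 had the next largest SDs, 0.49 and 0.48, with adjusted p of 0.959 and 0.964. With 2 residual degrees of freedom per gene, 0 calls do not show that the genes were stable. Without library 2 it called 26 genes and without library 3 it called 30, with 0 members in both cases. The median member had an SD of 0.19 against 0.26 for all genes as deposited, 0.18 against 0.26 with libraries scaled to equal totals, and 0.24 against 0.24 after median-ratio scaling. Without library 3 they were 0.23 and 0.23. The smaller SD of the members was thus seen neither under median-ratio scaling nor without library 3.

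Across the 31 members, library 1 had a Pearson correlation of log2 levels of 0.96 with library 2 and of 0.94 with library 3, and library 2 one of 0.98 with library 3. Within the 11 core genes the values were 0.75, 0.74 and 0.92 in the same order. These are correlations across genes of the same libraries, genes are not replicates, and the core genes cover a narrow range of levels.

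The proteasome genes were set beside the other assemblies for differences between these libraries. From library 1 to library 2, relative to the median gene, the median core gene differed by 0.58 on the log2 scale, the median respiratory chain gene by 0.53 and the median ribosomal protein gene by 0.12. From library 2 to library 3 the same medians were -0.13, 0.28 and -0.35. As deposited, both the core and the respiratory chain were mostly lowest in library 1 (10 of 11 and 45 of 52 genes), where 25.8% of all genes were. By contrast, 52 of 60 ribosomal protein genes were lowest in library 3, where 39.4% of all genes were. Respiratory chain genes were highest in library 2 in 4 of 52 cases, against 10 of 11 for the core and 26.3% of all genes. After median-ratio scaling 11 of 11 core and 48 of 52 respiratory chain genes were lowest in library 1, against 37.1% of all genes. Highest in library 2 were then 9 of 11 and 3 of 52, against 30.9%. Ribosomal protein genes were highest in library 2 in 27 of 60 cases as deposited and in 40 of 60 after that scaling. As deposited more of them, 31 of 60, were highest in library 1, against 51.1% of all genes. Only after that scaling did most ribosomal protein genes share the core's high values in library 2. For the CCT chaperonin the median gene differed by 0.29 from library 1 to library 2 and by -0.02 from library 2 to library 3. Of its 6 genes, 4 were lowest in library 1 and 3 highest in library 2, as deposited and after that scaling. These medians and counts were not tested against each other.

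**Figure D4:**
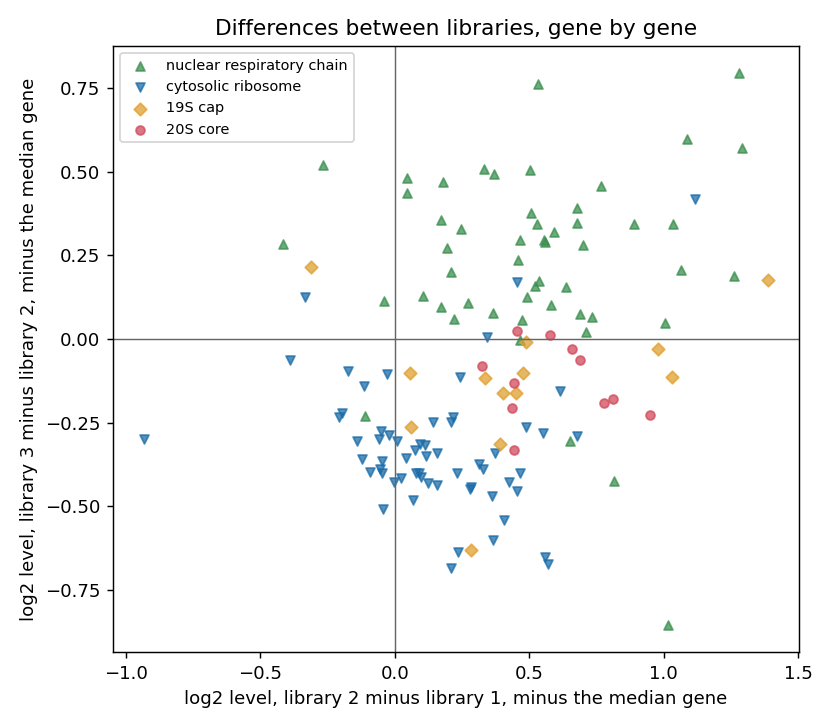
Log2(FPKM + 1) difference of library 2 minus library 1 (horizontal) and of library 3 minus library 2 (vertical), each minus the median gene, for genes of the proteasome core, its cap, the cytosolic ribosome and the nuclear respiratory chain; both axes share library 2, which ties them. The core median lies at 0.58 and -0.13, the respiratory chain median at 0.53 and 0.28 and the ribosomal median at 0.12 and -0.35.

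Partners of the particle outside the PSM names gave a mixed picture. Of 17 listed partners of the lid and cap, 13 were matched and all 13 passed the filter; 0 were called for spread. As deposited, 5 were lowest in library 1, against 25.8% of all genes, and 6 were highest there, against 51.1%. The 5 were ADRM1, SHFM1, USP14, TXNL1 and ZFAND2A, each highest in library 2. The 6 were UBE3C, UBE3A, RAD23B, UBQLN4, AKIRIN2 and ZFAND5. SHFM1, the small lid subunit also called SEM1, was listed at 67.0, 104 and 80.8 FPKM, the order of libraries that most core genes had. RAD23B, a shuttle that carries ubiquitinated proteins to the cap, was listed at 101, 47.4 and 61.2 FPKM, with library 1 highest.

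Of 2 assembly factors outside the PSM names, POMP, which guides the beta ring, was listed at 85.5, 131 and 108 FPKM. Its level lay in the range of the core genes and well above the PSMG chaperones. PAAF1, a chaperone of the cap base, was listed at 3.91, 3.78 and 2.82 FPKM.

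Genes known to control proteasome transcription or to work just upstream of the particle were matched for 10 of 13 listed symbols, with 0 called. Of these 10, 4 were highest in library 1, against 51.1% of all genes, and 4 in library 3, against 22.6%. VCP, the ATPase that extracts ubiquitinated proteins from membranes and complexes, was listed at 124, 180.3 and 172 FPKM, with library 1 lowest. NFE2L1, a transcription factor known to induce proteasome genes when the protease is inhibited, was listed at 134, 89.0 and 91.2 FPKM, with library 1 highest. MAFK, a partner of that factor, was listed at 15.4, 9.03 and 9.95 FPKM. NFE2L1 and MAFK had an adjusted p for spread of 0.993 each.

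Upstream of the protease, 16 of 23 genes of ubiquitin and its conjugation were matched, with 0 called. The gene with the synonym UBB, a polyubiquitin gene, was listed at 2359, 2367 and 1231 FPKM, so library 3 was low. UBE2G1, a ubiquitin-conjugating enzyme, was listed at 330, 367 and 280.4 FPKM. The median of this list deviated by -0.11, 0.00 and 0.10 from the median gene in libraries 1 to 3, closer to it in library 1 than the core median.

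Muscle ubiquitin ligases and adaptors were matched for 9 of 20 listed symbols, 8 of which passed the filter, with 0 called. The wasting-associated ligases FBXO32 and TRIM63 were not analysed here. KLHL41, a muscle adaptor of cullin ligases, was listed at 511, 561 and 662 FPKM and KLHL40, its relative, at 105, 100.7 and 139 FPKM, both highest in library 3. Of 31 genes of lysosomal, calpain and cytosolic proteolysis, 25 were matched and 24 passed the filter, with 0 called. Of the 24, 15 were highest in library 1, against 51.1% of all genes, and 13 were lowest in library 2, against 34.8%. The autophagosome genes MAP1LC3A and MAP1LC3B were listed at 272, 201 and 236 FPKM and at 242, 214 and 244 FPKM. ULK1, the kinase that starts autophagy, was listed at 4.14, 21.2 and 23.6 FPKM, the largest SD of that list at 1.26.

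The inducible form of the proteasome is known from mammals, where interferon exchanges catalytic subunits. The chicken gene table holds no PSMB symbol numbered above PSMB7, so inducible subunits of such names could not be matched. Of 15 listed genes of this system 8 were matched, none of them a proteasome subunit. The 7 that passed the filter were all highest in library 1, and 6 were lowest in library 3, against the 51.1% and 39.4% of all genes. TAP2, which carries peptides to class I molecules, was listed at 27.2, 15.2 and 9.34 FPKM, and IFNGR2, an interferon gamma receptor chain, at 50.8, 41.1 and 36.4 FPKM. IFNG was listed at 0 in every library. The list median deviated by 0.57, -0.06 and -0.46 in libraries 1 to 3, with 0 called, whereas the median core gene deviated by -0.60 in library 1.

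The position of the members was read only as an order of genes, and was not set against their levels. In the gene order of assembly GRCg7b, no member symbol lay directly beside another, and the closest pair, PSMD4 and PSMB4, had 6 protein-coding genes between them.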

How the data were processed

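The 3 deposited tables give 1 value for each of 36977 RefSeq transcripts per library. Values deposited by the authors were read as FPKM, inferred from non-whole values and library totals of 569361, 586193 and 573648. CASAVA 1.7, Bowtie2 and HTSeq are named, without roles, per the submitters' processing notes. The genome build, the annotation and the quantifying program were not given in the sources used here. Accessions, version dropped, were paired with symbols of the NCBI gene table (GRCg7b), which matched 13188 transcripts. Values were summed per gene. Genes that reached 1 FPKM in 2 or more libraries were kept and taken as log2(FPKM + 1). Since the tables hold no counts, the spread test used limma 3.58.1 (R 4.3.3, robust trend, residual df 2). A run on simulated data drew on the variances fitted by this same test. It is therefore no check of how the test does on the real data, and its outcome is not given. Other steps used pandas 2.3.3 in Python 3.11.15. Members, lists and tests were chosen with earlier results of these data known. Every matched member is named. Values per library are given for the highest and lowest of each class, for classes of up to 5 members, for the largest SDs and deviations, and, for each list, for the 2 highest genes and the most variable one with a mean of at least 5 FPKM. Alternatives changed pseudocount, filter, scaling, transcripts, class summary and libraries.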

Additional observations from a re-analysis of the deposited data

How the results depend on the processing

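Of 122 values recomputed under alternative settings for 14 results, 109 stayed within the spread between libraries or, for counts and the median SD, within 1.5 times. None changed the direction of a class ratio. Some of the 109 could not move. Scaling a library leaves a ratio or share within it unchanged, and each member rests on 1 transcript. The 4 class ratios and the share were thus fixed in advance under both scalings and with only the highest transcript of each gene. Those values say nothing about robustness. The core to cap log2 ratio of 1.14 was 1.04 with members that passed the filter only and with the stricter filter of 5 FPKM in every library, 1.17 with curated transcripts only, 0.95 without the chaperones PSMD5, PSMD9 and PSMD10 (chosen after seeing the data) and 2.26 with the mean of log2 levels. The ATPase to non-ATPase ratio of 1.11 was 2.66 with that mean. Both means, and the ratio of 0.95, take in PSMD12, listed near 0. The alpha to beta ratio of -0.44 was -0.39 with that mean and also -0.39 with curated transcripts only, and the members' share of 0.397% was 0.327% with curated transcripts only, which leaves 26 members past the filter. With 1 library left out, the spread test called 0 to 30 genes, with 26 without library 2 and 30 without library 3, and 0 members each time. The deviation of library 3 ran from -0.12 without library 1 to 0.29 without library 2, that of library 1 from -0.45 to -0.29, and that of library 2 from 0.12 to 0.45, while the 4 class ratios stayed within 0.96 to 1.20 (ATPase to non-ATPase), -0.45 to -0.43 (alpha to beta), 2.28 to 2.47 (core to activator) and 1.12 to 1.15 (core to cap). The ranges for core to cap and ATPase to non-ATPase are those of medians that take in PSMD12 and the chaperones PSMD5, PSMD9 and PSMD10. The share ran from 0.375% to 0.422% and the median SD from 0.13 to 0.23. Counts of members lowest or highest in a library were also recomputed under other scalings after seeing the data. A pseudocount has no part in the share, so none was tried there. No paired analysis was possible because the 3 libraries form 1 group. Depth is unknown, so what it limits could not be given.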
